A study of Mus musculus with 18 samples.

Results

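The genes described here encode the enzymes of glycolysis, of the pentose phosphate pathway and of glycogen turnover, together with the hypoxia factor Hif1a, in cells of the neutrophil lineage of the mouse. They were picked by symbol as 38 genes of the 34896 in the expression table, and all 38 were found. RNA-seq covered 3 stages with 3 libraries each: granulocyte-monocyte progenitors (GMP), pre-neutrophils (preNeu) and mature neutrophils (matNeu), sorted with surface markers from the bone marrow of wild type (WT) C57BL/6 mice aged 6 to 12 weeks. ChIP-seq for the chromatin remodeler CHD4 in GMPs from WT and Gfi1-/- mice of the same strain and age, ChIP-seq for the histone mark H3K4me2 in WT cells of each stage and ATAC-seq in WT preNeu and matNeu cells had 1 library each, so that peak values have no replicate check. Marrow from several bones was pooled before sorting, and nothing states that replicate libraries came from separate animals, so that p-values measure the spread between these libraries only.

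Glycolysis splits glucose into pyruvate, which lactate dehydrogenase turns into lactate or pyruvate dehydrogenase passes to the mitochondria. The pentose phosphate pathway branches off at glucose-6-phosphate and yields NADPH, which neutrophils spend in the oxidative burst, and pentoses for nucleotides. Glycogen is a store of glucose that neutrophils are known to build and to break down, and several steps of these pathways are served by isoenzymes encoded by different genes.

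The library titles and a second cell type label differed for 13 of 18 samples, including all 9 RNA libraries, and the titles were followed. The sums of marker genes went with the titles. The 8 GMP markers, among them Mpo and Elane, summed to between 45473 and 47376 TPM in the libraries titled GMP and to at most 41.1 TPM in those titled matNeu. The 7 preNeu markers, such as Ngp and Ltf, summed to at least 146255 TPM in preNeu, and the 7 matNeu markers, such as Cxcr2 and Mmp9, to at least 33751 TPM in matNeu. Itgam, from the preNeu list, went the other way, with 493 to 642 TPM in preNeu and 837 to 900 TPM in matNeu. Markers of other cells moved with stage: monocyte markers (8 genes, all detected in GMP) summed to 1792 to 2159 TPM in GMP, 69 to 108 in preNeu and 351 to 484 in matNeu, where Csf1r (253 to 350 TPM) and Adgre1 (75.7 to 97 TPM) made up most of the sum and stood above their GMP levels (188 to 232 and 10.7 to 14.9 TPM), while C1qa was highest in preNeu (22.7 to 28.1 TPM). The 4 eosinophil markers summed to 850 to 1096 TPM in GMP and to at most 52.2 elsewhere. Prg2 (671 to 863 TPM) and Epx (120 to 186 TPM) made up most of the GMP sum. Siglecf and Ccr3 did not follow it. Siglecf was at 30.8 to 58.6 TPM in GMP, 14.8 to 23.5 in preNeu and 31.2 to 48.7 in matNeu. Ccr3 was at most 0.66 TPM in GMP, 3.19 to 7.93 in preNeu and 2.03 to 4.52 in matNeu. The 4 basophil or mast cell markers gave 411 to 579 TPM in GMP, 289 to 478 in preNeu and at most 12.5 in matNeu, with Fcer1a listed at 0 in 2 of 3 matNeu libraries. The sums for T or NK cells were 461 to 613, 216 to 252 and 9.01 to 16 TPM (5 genes), with Nkg7 alone at 457 to 610 TPM in GMP, and Cd3e was at most 0.101 TPM. Erythroid genes summed to at most 32.5 TPM and megakaryocyte genes to at most 49.8 TPM in any library. The part of these cells in the results below was not tested. In such bulk samples, fewer cells of a type and less RNA per cell cannot be told apart.

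Levels are given as TPM, transcripts scaled to a fixed sum in each library and corrected for length, so that genes can be compared with each other. The 10 most abundant genes took 9.15 to 9.78% of TPM in GMP, 24.1 to 28.3% in preNeu and 12.7 to 15.9% in matNeu, and the level of all other genes is relative to that. The median log2 change over all 13061 genes tested was below 0. It was -0.92 in matNeu against GMP, -0.52 in preNeu against GMP and -0.32 in matNeu against preNeu. With TPM rescaled without the 50 most abundant genes, these medians were -0.82, -0.2 and -0.52. Their cause was not tested. Log2 changes below were fitted with limma on log2(TPM + 1), which understates the change of low genes, and a gene is called where its Benjamini-Hochberg adjusted p over all genes was below 0.05.

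CHD4 occupied the promoters of 10 members in WT GMPs, and the windows around the start sites of Hk3, Pdk1, Pgk1 and Pygl are shown because a CHD4 peak lay over each of them while the transcripts went different ways: Hk3 and Pygl were higher, Pgk1 and Pdk1 lower in matNeu than in GMP. The sequences are RefSeq windows of 300 bp (250 before the start, 50 from it) on GRCm38.p6, 5′ to 3′ along the gene. Capitals mark every match to ACGTG (the core of the hypoxia response element), GCGTG (the other form of that core), CACGTG (an E-box), AAATCA (the GFI1 core), GAGGAAGT (an SPI1 core) or TATAAA on either strand, where CACGTG contains ACGTG.
Hk3, chr13:55021336-55021635, minus strand: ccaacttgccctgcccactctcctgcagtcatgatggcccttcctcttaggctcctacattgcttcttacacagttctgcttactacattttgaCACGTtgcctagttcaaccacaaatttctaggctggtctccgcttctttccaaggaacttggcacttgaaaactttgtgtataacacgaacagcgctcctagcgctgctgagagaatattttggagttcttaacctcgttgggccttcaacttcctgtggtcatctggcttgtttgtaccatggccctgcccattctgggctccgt
Pgk1, chrX:106186850-106187149, plus strand: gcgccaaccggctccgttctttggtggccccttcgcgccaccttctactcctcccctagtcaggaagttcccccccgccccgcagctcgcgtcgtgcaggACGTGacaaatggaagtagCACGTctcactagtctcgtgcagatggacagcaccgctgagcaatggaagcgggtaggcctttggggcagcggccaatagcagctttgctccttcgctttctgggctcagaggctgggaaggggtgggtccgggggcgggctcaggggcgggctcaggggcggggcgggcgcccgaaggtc
Pdk1, chr2:71872974-71873273, plus strand: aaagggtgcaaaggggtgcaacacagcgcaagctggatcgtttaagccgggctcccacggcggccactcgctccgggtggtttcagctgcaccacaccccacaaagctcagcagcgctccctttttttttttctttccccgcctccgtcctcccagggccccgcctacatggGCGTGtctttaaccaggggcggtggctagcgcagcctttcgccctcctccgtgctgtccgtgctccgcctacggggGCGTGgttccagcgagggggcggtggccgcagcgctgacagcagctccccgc
Pygl, chr12:70227634-70227933, minus strand: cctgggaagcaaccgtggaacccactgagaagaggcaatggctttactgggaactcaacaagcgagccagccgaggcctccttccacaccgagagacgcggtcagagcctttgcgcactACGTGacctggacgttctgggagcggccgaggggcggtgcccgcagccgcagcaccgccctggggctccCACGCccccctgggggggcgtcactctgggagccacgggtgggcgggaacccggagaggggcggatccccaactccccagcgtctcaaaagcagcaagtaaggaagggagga

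These windows held 1 match to ACGTG in Hk3, 2 in Pgk1, 2 matches to GCGTG in Pdk1, and 1 of each in Pygl. Over all members, ACGTG was present in 25 of 58 windows (43.1%), against 19.6% of the 32817 promoter windows in the RefSeq table, and GCGTG in 32 windows (55.2%), against 32.4%. CACGTG was present in 5 windows (8.62%, against 7.15%), in Pfkm, Pfkfb2, Pfkfb3, Ldha and Hif1a. AAATCA was present in 3 windows (5.17%, against 14%), TATAAA in 2 (3.45%, against 13.6%) and GAGGAAGT in 0 of 58, against 3.2% of all windows. The windows compared were not limited to expressed genes or matched for base composition, and ACGTG and GCGTG both contain CG. Some windows of the same gene overlap, as in Aldoa, so that 1 match can count more than once. The excess over all windows therefore cannot be read as particular to these pathways. A match describes the letters of a window and is no evidence that a factor binds there.

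In matNeu against GMP, 14 members were called higher (22.8% of all genes tested were) and 22 lower (54.1% of all genes were). The median log2 change of the members was -0.96 beside -0.92 over all genes, so that the list as a whole moved like the transcriptome while single genes went far to either side. In preNeu against GMP, 15 members were called higher (14.7% of all genes) and 14 lower (44.3%), with a median of 0.08 beside -0.52. In matNeu against preNeu, 8 were called higher (22.9%) and 19 lower (39.8%), with a median of -0.46 beside -0.32. When TPM were rescaled by the median of ratios between libraries, the split became 16 higher and 16 lower in matNeu against GMP (34.4% and 41.8% of all genes), 18 and 8 in preNeu against GMP (23.2% and 28.2%) and 13 and 15 in matNeu against preNeu (30.2% and 33.8%), with medians over all genes of -0.2, -0.09 and -0.07. The TPM of all 38 members together made up 1.89% of GMP, 2.11% of preNeu and 2.25% of matNeu transcripts.

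Across the 2 steps, 6 members were called higher at each (Hk3, Pfkfb4, Pkm, Pgd, Taldo1 and Pygl) and 6 lower at each (Hk1, Tpi1, Pgam1, Ldha, Pgls and Pygb). A further 7 were called higher in preNeu than in GMP and lower again in matNeu: Gpi1, Pdk3, G6pdx, Tkt, Gys1, Gbe1 and Ugp2. The share of all genes with each course was not computed, so the counts do not set the members apart from other genes. These courses depended in part on the scale. Under the median of ratios, Hk1 (0.01) and Pgls (0.04) changed sign in preNeu against GMP, Ldha was called at neither step (-0.21 and -0.15), and the drop to matNeu was no longer called for Gpi1 (-0.11) and Ugp2 (-0.07). Rescaled without the 50 most abundant genes, Hk1 (-0.11) and Pgls (-0.07) lost the call in preNeu against GMP and Hk3 (0.14) that in matNeu against preNeu.

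**Figure D1:**
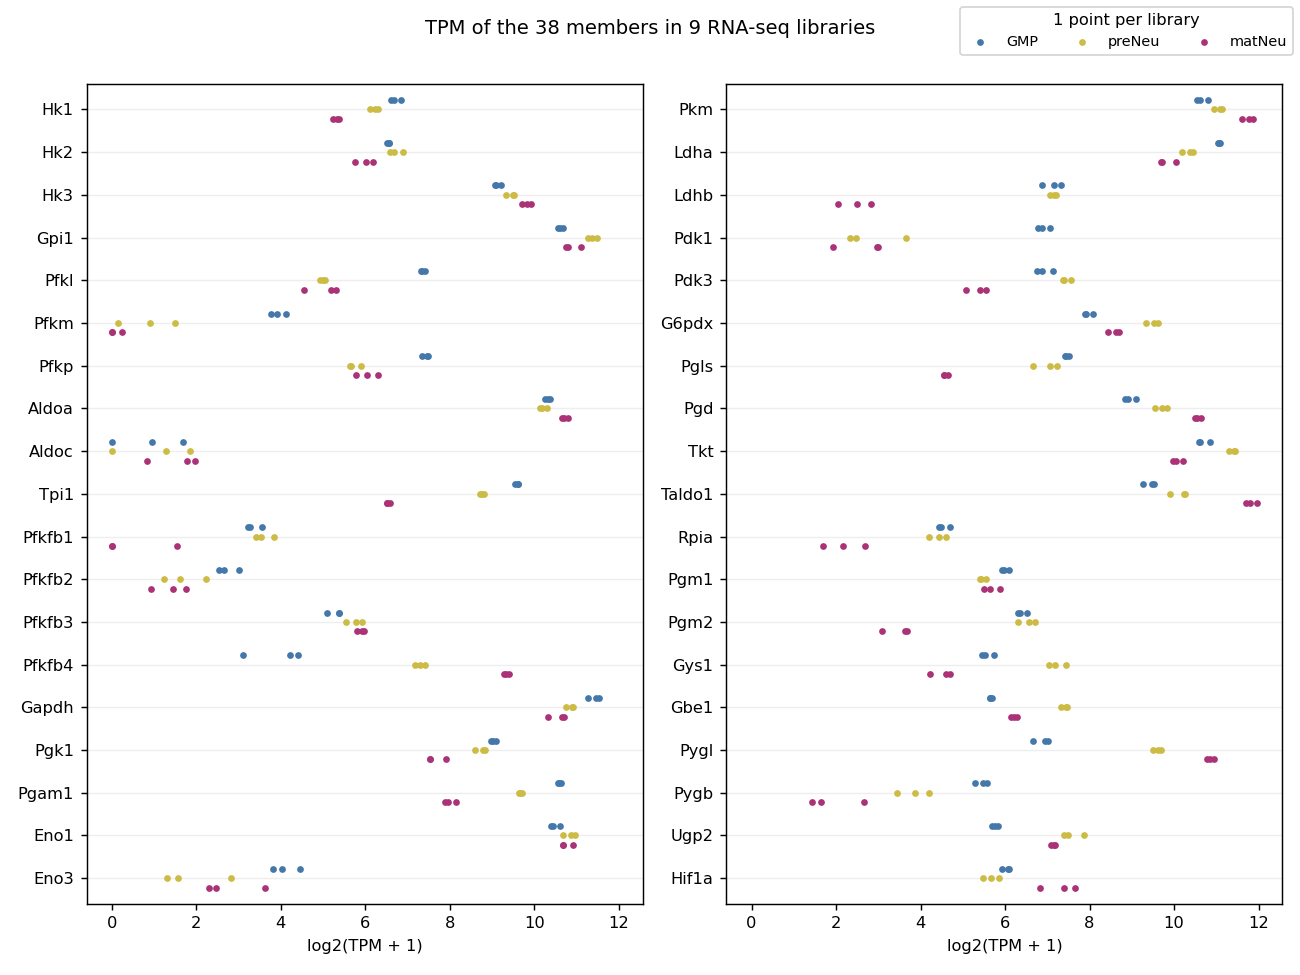
Level of each of the 38 members as log2(TPM + 1) on the horizontal axis, with 1 point for each of the 9 libraries, coloured by cell type. The matNeu points of Pfkfb4 (621 to 671 TPM) and Pygl (1755 to 1966 TPM) lie far above those of GMP, while those of Ldhb (3.16 to 6.07 TPM) and Pygb (1.69 to 5.33 TPM) lie far below.

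**Figure D2:**
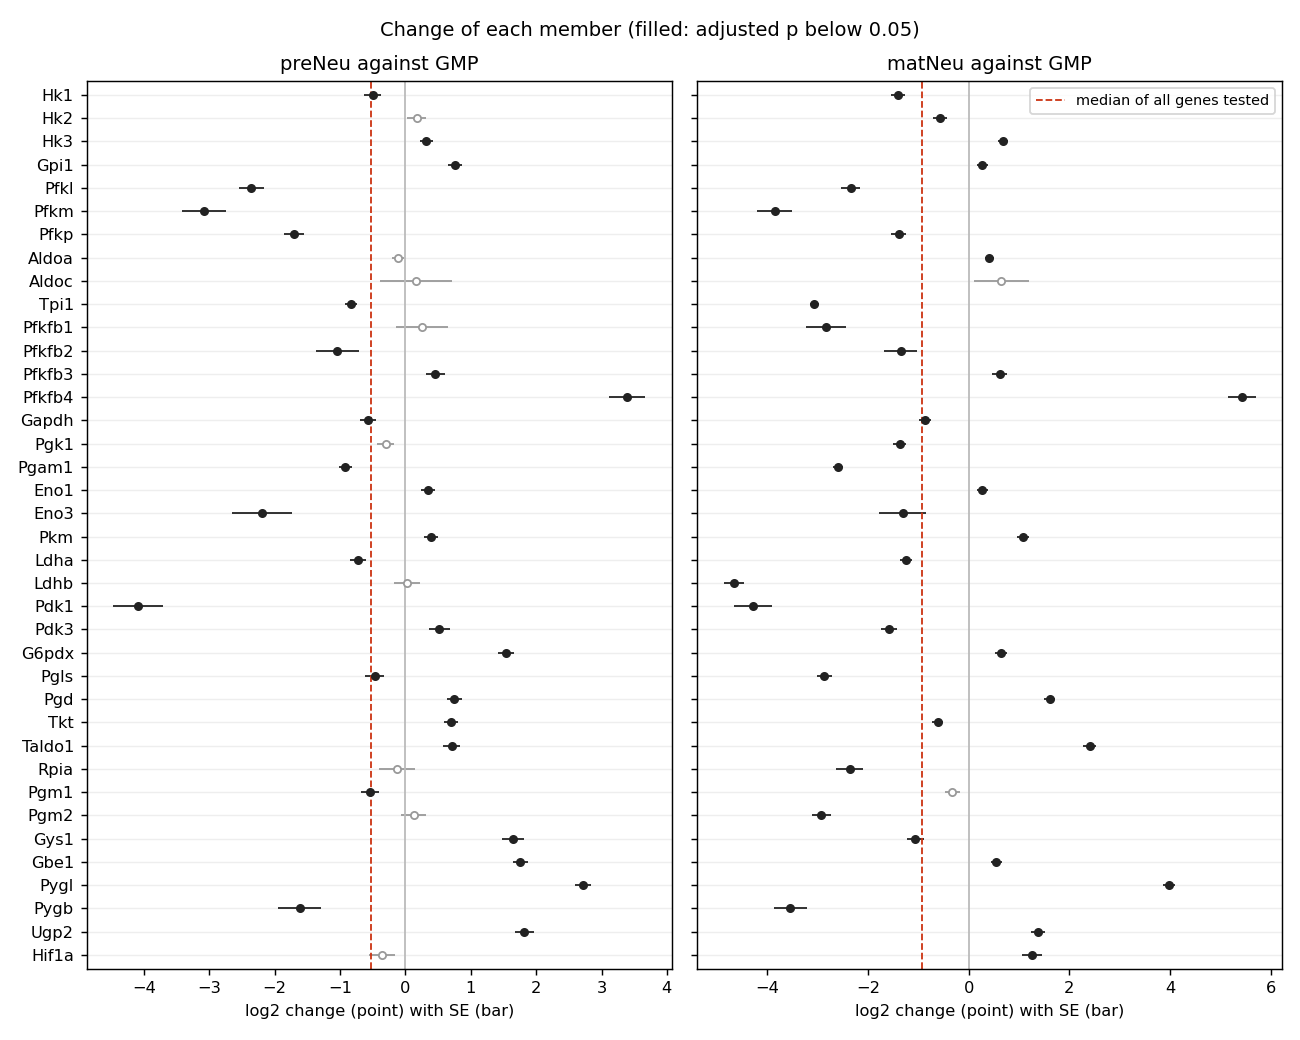
Log2 change of each member in preNeu (left) and matNeu (right) against GMP, with the SE as a bar and filled points for an adjusted p below 0.05. The dashed line is the median over all genes tested, -0.52 on the left and -0.92 on the right.

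Of the hexokinases, which phosphorylate glucose on entry, Hk3 led at every stage and gained share. Hk3 stood at 534, 588 and 548 TPM in GMP, 640, 722 and 728 in preNeu and 834, 961 and 902 in matNeu, with no overlap between stages (log2 change 0.69 ± 0.10 SE in matNeu against GMP, adjusted p = 8.22e-05). Hk1, which binds mitochondria and is the form of most tissues, gave 97, 114 and 101 TPM in GMP, 67.9, 74.3 and 77.1 in preNeu and 39, 40.6 and 36.9 in matNeu. This was a log2 change of -1.40 ± 0.13 (adjusted p = 1.7e-06). Hk2, the insulin-responsive form of muscle and fat, went from 90.7, 92.7 and 93 TPM in GMP to 101, 94.2 and 117 in preNeu and 52.6, 71.3 and 63.4 in matNeu, where it was called lower (-0.56 ± 0.14, adjusted p = 0.00405) but was at 0.31 and not called after the rescaling. Hk3 therefore made up 73.9% ± 0.095 (SD, n = 3) of hexokinase TPM in GMP, 79.7% ± 1.2 in preNeu and 89.9% ± 0.28 in matNeu. The shares did not overlap between GMP and matNeu (exact permutation test, two-sided, p = 0.1, the smallest that 3 against 3 libraries allow).

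Of the other enzymes of upper glycolysis, Gpi1, glucose-6-phosphate isomerase, peaked in the middle stage, with 1558, 1631 and 1506 TPM in GMP, 2477, 2628 and 2837 in preNeu and 1733, 1765 and 2204 in matNeu. Its rise in preNeu (0.76 ± 0.11, adjusted p = 0.000213) was clear of the spread, whereas the difference between matNeu and GMP was just past the threshold (0.27 ± 0.11, adjusted p = 0.0468) and was lost without any of the 3 GMP libraries, without preNeu replicate 2 or without matNeu replicate 3. All 3 phosphofructokinases, which commit sugar to glycolysis, were lower in preNeu. Pfkl, the liver form, fell from 158, 162 and 168 TPM in GMP to 30.9, 29.6 and 32 in preNeu and 22.4, 35.2 and 38.7 in matNeu (-2.34 ± 0.19 in matNeu against GMP, adjusted p = 6.65e-07). Pfkp, the platelet form, fell from 179, 175 and 161 TPM to 48.7, 58.8 and 49.7 and stood at 54.2, 64.8 and 78.1 in matNeu (-1.39 ± 0.15, adjusted p = 8.83e-06). Pfkm, the muscle form, stood at 13.9, 16.5 and 12.5 TPM in GMP, 0.102, 0.859 and 1.83 in preNeu, and 0.184 TPM in 1 matNeu library while listed at 0 in the other two (-3.85 ± 0.34, adjusted p = 1.46e-06). The preNeu and matNeu levels of Pfkl overlapped, and no phosphofructokinase was called between these stages. Pfkp thus made up 49.3% ± 1.9 of the family in GMP, 62.1% ± 3.3 in preNeu and 67.5% ± 3.1 in matNeu.

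Aldoa and Tpi1 act in sequence, yet moved apart. Aldoa, the aldolase of muscle and blood cells, stood at 1323, 1273 and 1214 TPM in GMP, 1156, 1251 and 1124 in preNeu and 1668, 1779 and 1620 in matNeu (0.41 ± 0.09 in matNeu against GMP, adjusted p = 0.00171). Tpi1, triosephosphate isomerase, fell from 781, 741 and 782 TPM to 430, 447 and 418 and then to 89.7, 90 and 94.4 (-3.06 ± 0.09, adjusted p = 6.31e-10). Aldoc, the brain aldolase, was at most 2.89 TPM in any library and was called in no comparison. The summed TPM of the upper enzymes was 3952 ± 93.9 in GMP, 4342 ± 174 in preNeu and 3781 ± 236 in matNeu, and the small drop from GMP to matNeu was within the spread (exact permutation test, two-sided, p = 0.4) and changed sign under both rescalings.

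PFKFB enzymes make and break fructose-2,6-bisphosphate, the strongest activator of phosphofructokinase. Pfkfb4 had 20.3, 17.5 and 7.61 TPM in GMP, 143, 170 and 156 in preNeu and 621, 639 and 671 in matNeu, the largest rise of any member (log2 change 5.42 ± 0.28 in matNeu against GMP, adjusted p = 1.83e-08). Pfkfb3, whose kinase activity far exceeds its phosphatase activity, went from 33.2, 40.8 and 40.4 TPM to 45.4, 53.5 and 59.7 and to 55, 59.6 and 61.7 (0.62 ± 0.15, adjusted p = 0.00356). Pfkfb1 stood between 8.26 and 13.4 TPM in GMP and preNeu and was listed at 0 in 2 matNeu libraries and at 1.92 TPM in the other, and Pfkfb2 ran from 4.81 to 7.03 TPM in GMP and from 0.887 to 2.4 in matNeu. Both were called lower in matNeu, although the call of Pfkfb2 was lost after the rescaling. The leading form thus passed from Pfkfb3, at 56% ± 6 of PFKFB TPM in GMP, to Pfkfb4, at 22.1% ± 9.6 in GMP, 70.3% ± 1.7 in preNeu and 91.3% ± 0.16 in matNeu, with no overlap between the stages. The family's summed TPM rose from 68.2 ± 3.2 in GMP to 705 ± 28.1 in matNeu, a ratio of 10.3.

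Enzymes of lower glycolysis split into those that fell and those that held or rose. Gapdh, often used as a reference gene, stood at 2940, 2457 and 2829 TPM in GMP, 1890, 1918 and 1713 in preNeu and 1653, 1620 and 1270 in matNeu (-0.86 ± 0.12 in matNeu against GMP, adjusted p = 7.35e-05), but at 0.02 after the rescaling, so that its direction was set by the scale. Pgk1, which makes the first ATP of the pathway, was at 505, 547 and 515 TPM, 384, 451 and 442, and 185, 239 and 184 (-1.37 ± 0.13, adjusted p = 2.05e-06). Pgam1, phosphoglycerate mutase, had the steepest course of these, from 1573, 1522 and 1503 TPM to 799, 802 and 833 and to 235, 247 and 281 (-2.59 ± 0.10, adjusted p = 2.08e-09). Reads of Pgam1 could be shared with the near-identical copy Pgam1-ps2, listed at 11 to 243 TPM. Eno1, the main enolase, went the other way with 1354, 1555 and 1385 TPM, then 1640, 1871 and 1984, then 1632, 1915 and 1633 (0.27 ± 0.11, adjusted p = 0.0479, a call that was lost without any of 5 single libraries). Pkm, pyruvate kinase, rose from 1484, 1798 and 1576 TPM to 1955, 2175 and 2231 and to 3104, 3727 and 3473, without overlap (1.08 ± 0.11, adjusted p = 4.83e-06). Eno3, the muscle enolase, was a minor transcript at 13 to 21 TPM in GMP and 3.89 to 11.3 in matNeu. The summed TPM of the lower enzymes was 7864 ± 32.1 in GMP, 7033 ± 315 in preNeu and 7140 ± 537 in matNeu, a drop that changed sign under both rescalings.

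The genes that steer pyruvate were all lower in matNeu than in GMP. Ldha, the lactate dehydrogenase subunit that favours lactate, was at 2108, 2167 and 2134 TPM in GMP, 1161, 1325 and 1390 in preNeu and 830, 1048 and 839 in matNeu (-1.25 ± 0.12, adjusted p = 2.13e-06). Ldhb, the subunit that favours pyruvate, held at 159, 117 and 142 TPM in GMP and 147, 143 and 132 in preNeu and then dropped to 4.64, 6.07 and 3.16 in matNeu (-4.66 ± 0.20, adjusted p = 5.87e-09, and -4.68 ± 0.20 against preNeu, adjusted p = 1.28e-08). Ldhb was 6.12% ± 0.95 of lactate dehydrogenase TPM in GMP, 9.87% ± 1.3 in preNeu and 0.502% ± 0.11 in matNeu. Pdk1, a kinase that switches pyruvate dehydrogenase off, fell one stage earlier, from 109, 117 and 132 TPM in GMP to 3.99, 4.55 and 11.6 in preNeu and 2.81, 6.98 and 6.77 in matNeu (-4.09 ± 0.38 in preNeu against GMP, adjusted p = 8.6e-06). Its relative Pdk3 was at 117, 140 and 107 TPM, then 167, 165 and 187, then 32.6, 45.6 and 41.4, called higher in preNeu (0.52 ± 0.16, adjusted p = 0.0149, a call lost without GMP replicate 3 or preNeu replicate 3) and lower in matNeu than in GMP (-1.58 ± 0.16, adjusted p = 3.5e-06). Pdk1 was 49.7% ± 5 of the pair in GMP and 3.61% ± 1.9 in preNeu. The summed TPM of these 4 genes fell from 2516 ± 23.8 in GMP to 1613 ± 123 in preNeu and 956 ± 131 in matNeu, a log2 ratio to GMP of -0.64 in preNeu and -1.40 in matNeu that shrank to -0.13 and -0.50 under the median of ratios.

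**Figure D3:**
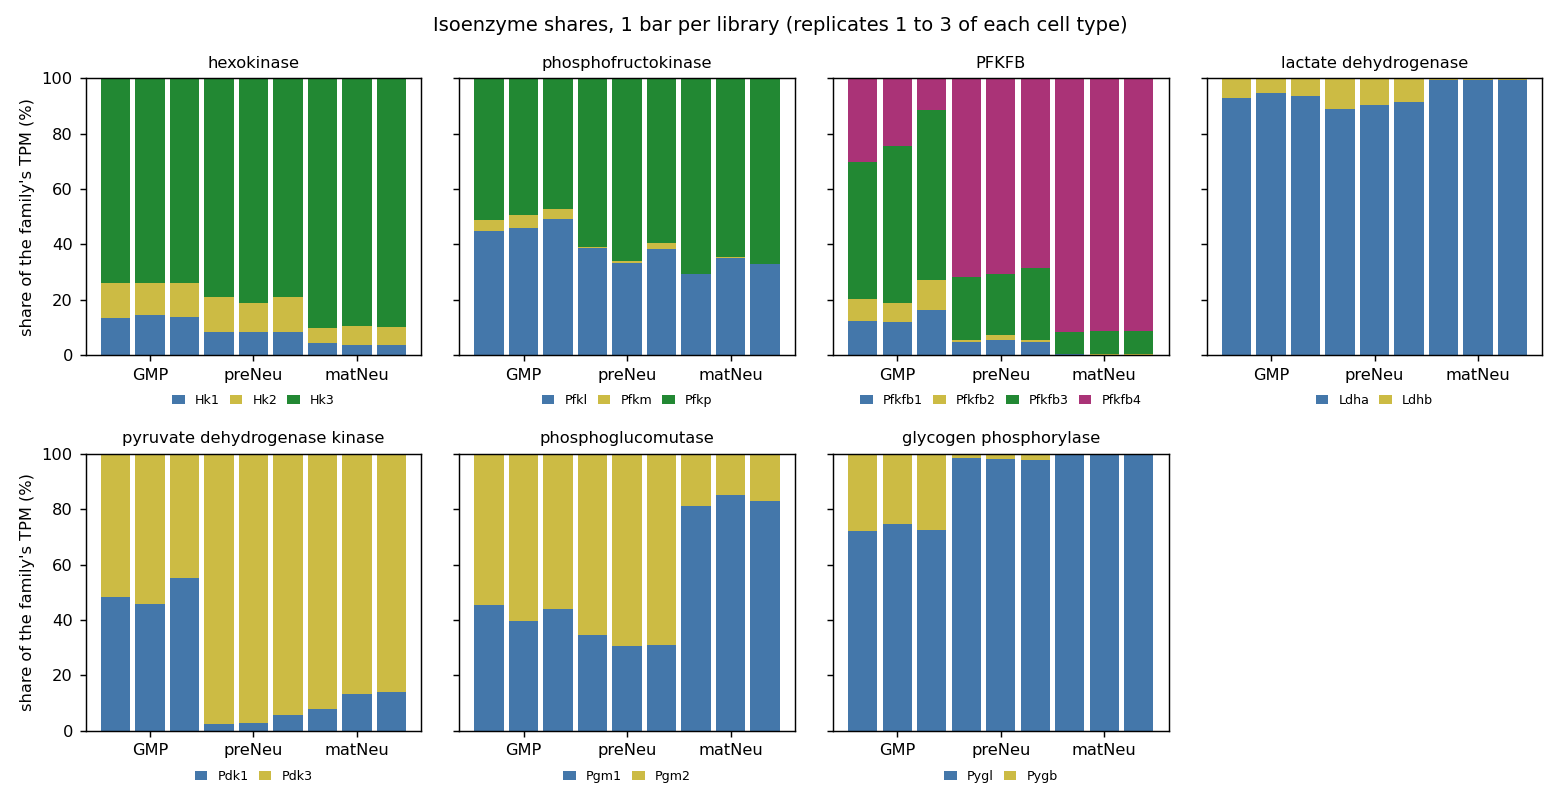
Share of each isoenzyme in the summed TPM of its family, in percent, with 1 stacked bar per library. Pfkfb4 takes 91.3% of its family on average in matNeu and Pygl 99.8%, while Pdk1 drops from 49.7% in GMP to 3.61% in preNeu.

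Of the 6 pentose phosphate members, 3 were called higher (G6pdx, Pgd and Taldo1) and 3 lower (Pgls, Tkt and Rpia) in matNeu against GMP. Of all genes tested, 22.8% were called higher and 54.1% lower. G6pdx, whose enzyme opens the pathway and makes NADPH, peaked in preNeu: 239, 269 and 235 TPM in GMP, 644, 734 and 787 in preNeu and 347, 414 and 396 in matNeu (1.54 ± 0.12 in preNeu against GMP, adjusted p = 2.43e-06). Pgd, which makes the other NADPH, climbed through both steps with 478, 546 and 456, then 749, 837 and 914, then 1489, 1441 and 1601 TPM (1.61 ± 0.11 in matNeu against GMP, adjusted p = 1.93e-07). Between them acts the lactonase Pgls, which fell from 169, 173 and 181 TPM in GMP to 150, 132 and 99.8 and then to 24.2, 22.4 and 22.7 (-2.86 ± 0.15, adjusted p = 2.78e-08).

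Of the non-oxidative arm, which returns pentoses to glycolysis, Taldo1, transaldolase, had the highest mean TPM of all members in matNeu. It rose from 735, 619 and 707 TPM in GMP to 1204, 1220 and 951 in preNeu and 3574, 4003 and 3347 in matNeu (2.40 ± 0.13, adjusted p = 2.33e-08). Its partner Tkt, transketolase, was at 1537, 1834 and 1575 TPM, then 2510, 2722 and 2780, then 1009, 1186 and 1048. Tkt was called higher in preNeu (0.70 ± 0.11, adjusted p = 0.000258) and lower in matNeu than in GMP (-0.61 ± 0.11, adjusted p = 0.00034), though at 0.28 after the rescaling, where it was called higher. Rpia, the ribose-5-phosphate isomerase, was low throughout, with 21.3, 25 and 20.6 TPM in GMP, 17.3, 23.1 and 20.5 in preNeu and 2.21, 3.52 and 5.39 in matNeu (-2.36 ± 0.27, adjusted p = 1.01e-05). The summed TPM of the 6 genes was 3273 ± 167 in GMP, 5499 ± 202 in preNeu and 6645 ± 369 in matNeu, a ratio of 2.03 between matNeu and GMP, without overlap.

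Glycogen genes showed the synthesis and breakdown enzymes at different stages. Gys1, glycogen synthase, was at 45.2, 52.5 and 43.1 TPM in GMP, 131, 145 and 173 in preNeu and 17.8, 24.9 and 23.4 in matNeu, higher in preNeu (1.65 ± 0.17, adjusted p = 1.84e-05) and lower again in matNeu (-2.72 ± 0.17 against preNeu, adjusted p = 2.05e-07). Gbe1, the branching enzyme, was at 50.6, 48.8 and 49.4 TPM, then 177, 159 and 174, then 72.7, 76.6 and 69.3 (1.76 ± 0.11 in preNeu against GMP, adjusted p = 7.23e-07). Ugp2, which makes the UDP-glucose that both use, was at 53.6, 50.8 and 55.6 TPM, then 180, 167 and 233, then 144, 136 and 143 (1.82 ± 0.14, adjusted p = 2.32e-06). All 3 were thus highest in preNeu, although the step down to matNeu was slight for Ugp2 (-0.44 ± 0.14, adjusted p = 0.0168, lost without preNeu replicate 3).

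Pygl, the liver form of the phosphorylase that releases glucose from glycogen, rose instead through both steps, from 122, 129 and 100 TPM in GMP to 720, 784 and 825 in preNeu and 1755, 1966 and 1832 in matNeu (3.98 ± 0.12 in matNeu against GMP, adjusted p = 5.45e-10). Pygb, the brain form, went from 46.9, 43.9 and 37.9 TPM to 9.79, 13.5 and 17.4 and to 2.1, 1.69 and 5.33 (-3.54 ± 0.33, adjusted p = 2.21e-06), so that Pygl went from 73.1% ± 1.3 of phosphorylase TPM in GMP to 98.3% ± 0.36 in preNeu and 99.8% ± 0.11 in matNeu. The phosphoglucomutases, which link glycogen to glycolysis, carry crossed names: the row named Pgm1 has the identifier ENSMUSG00000029171, which GENCODE and RefSeq call Pgm2 on chr5, and the row named Pgm2 has ENSMUSG00000025791, called Pgm1 there, on chr4. By the names of the table, Pgm1 was at 67.1, 60.1 and 61.9 TPM in GMP, 41.5, 41.8 and 46.2 in preNeu and 49.3, 44.2 and 58.3 in matNeu. Pgm2 was at 80.7, 91.1 and 78.7 TPM, then 78.7, 94.3 and 103, then 11.5, 7.54 and 11.9 (-2.92 ± 0.19 in matNeu against GMP, adjusted p = 1.16e-07), and its share of the pair went from 56.9% ± 3 in GMP and 67.9% ± 2.1 in preNeu to 16.8% ± 2.2 in matNeu. The summed TPM of the 7 glycogen genes was 456 ± 25.9 in GMP, 1439 ± 121 in preNeu and 2151 ± 103 in matNeu.

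Hif1a, the oxygen-regulated factor that drives many glycolytic genes, was at 66.1, 67.6 and 59.9 TPM in GMP, 43.8, 49.9 and 57.2 in preNeu and 112, 168 and 201 in matNeu (1.26 ± 0.20 in matNeu against GMP, adjusted p = 0.000168, and 1.62 ± 0.20 against preNeu, adjusted p = 3.88e-05). The matNeu libraries lay above all others but spread widely among themselves. Of 8 other hypoxia pathway genes, 6 were tested in matNeu against GMP, of which 1 was called higher and 1 lower, and 5 were called higher and 0 lower after the rescaling by the median of ratios. Among all genes tested, 22.8% were called higher and 54.1% lower, and 34.4% and 41.8% after that rescaling.

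Neighbouring steps were read from 76 further genes of these pathways, of which 55 passed the filter on low values, 12 were called higher and 30 lower in matNeu against GMP, beside 22.8% and 54.1% of all genes. After the median of ratios, 22 of the 55 were higher and 25 lower, beside 34.4% and 41.8%. Of 8 carriers tested, 5 were called higher and 2 lower. Slc16a3, the lactate exporter MCT4, went from 14.8, 14 and 10.7 TPM in GMP to 111, 122 and 105 in preNeu and 1192, 1296 and 1389 in matNeu (6.52 ± 0.14, adjusted p = 1.11e-10). Slc16a1, the carrier MCT1, had 63.9, 64.1 and 58.8 TPM in GMP and at most 0.517 in matNeu (-5.64 ± 0.22, adjusted p = 2.88e-09). Slc16a1 thus led in GMP and Slc16a3 in matNeu, while Bsg, their shared chaperone, was at 588, 471 and 515 TPM in GMP and 106, 120 and 108 in matNeu.

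Of the glucose carriers, Slc2a3 (GLUT3) stood at 12.5, 22 and 14.8 TPM in GMP, 147, 142 and 152 in preNeu and 886, 1036 and 952 in matNeu (5.82 ± 0.18, adjusted p = 6.58e-10). Slc2a6 (GLUT6) had 27.2, 21.9 and 20.7 TPM in GMP, at most 1.6 in preNeu and 642, 718 and 779 in matNeu (4.88 ± 0.25, adjusted p = 1.92e-08). Slc2a1 (GLUT1) was at 20.9, 22.1 and 20.6 TPM, then 9.5, 14 and 13, then 86.5, 109 and 121 (2.25 ± 0.19, adjusted p = 9.56e-07). All 3 were highest in matNeu, but only Slc2a3 had already been called higher in preNeu.

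Adpgk, a glucokinase that uses ADP, was the other entry point that changed: 80, 92.8 and 73.9 TPM in GMP, 1835, 1991 and 2124 in preNeu and 661, 932 and 641 in matNeu, against summed hexokinase TPM of 753 ± 37.5, 874 ± 58.2 and 1000 ± 73.4. In preNeu it was therefore above the sum of the 3 hexokinases. Bpgm (log2 change -2.25 ± 0.28) and Tigar (-3.14 ± 0.38), which divert or remove sugar phosphates, were called lower in matNeu.

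On the pyruvate dehydrogenase side, 8 of 8 genes tested were called lower in matNeu against GMP and 0 higher (7 lower after the median of ratios). Across all genes, 54.1% were called lower (41.8% after the median of ratios). The subunits Pdha1, Pdhb, Dlat, Pdhx and Dld fell by 2.24, 2.32, 3.96, 3.66 and 2.25 on the log2 scale while the phosphatases Pdp1 (-4.09 ± 0.23) and Pdp2 (-3.78 ± 0.25) and the kinase Pdk2 (log2 change -1.57, adjusted p = 0.00486) fell as well. Of these, Pdp1 had 23.8, 28.7 and 33.6 TPM in GMP and 1.05, 0.579 and 0.609 in matNeu.

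Of other pentose phosphate genes, 5 of 6 tested were called lower and 0 higher (4 and 1 after the median of ratios). The shares of all genes were 54.1% lower and 22.8% higher (41.8% and 34.4% after the median of ratios). Prps1, which turns ribose-5-phosphate into the precursor of nucleotides, fell from 199, 205 and 193 TPM in GMP to 53.4, 63.2 and 65.4 in preNeu and 1.12, 1.09 and 0.546 in matNeu (-6.72 ± 0.18, adjusted p = 2.95e-10), and Prps2 from 72.6, 65.4 and 55.4 TPM to at most 2.43 (-4.76 ± 0.26). Rpe and Shpk were lower as well (-2.38 ± 0.17 and -2.68 ± 0.45).

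The glycogen regulators and gluconeogenic genes were split by function. Ppp1r3b and Ppp1r3d, subunits that bring protein phosphatase 1 to glycogen, rose from at most 8.86 and 2.89 TPM in GMP to 178, 215 and 261 and to 102, 125 and 123 in matNeu (4.69 ± 0.26 and 5.11 ± 0.18). The phosphorylase kinase subunits Phka2 (-2.94 ± 0.30) and Phkb (-2.25 ± 0.24) and the lysosomal glucosidase Gaa (-3.86 ± 0.26) fell. Of gluconeogenic genes, 5 of 5 tested were called lower (4 after the median of ratios), against 54.1% of all genes (41.8% after the median of ratios). G6pc3, the glucose-6-phosphatase that neutrophils need, went from 302, 275 and 298 TPM in GMP to 32.5, 38.3 and 42.5 in preNeu and 1.7, 4.38 and 1.09 in matNeu (-6.55 ± 0.30, adjusted p = 7.72e-09). The others were Slc37a4, its transporter (-2.02 ± 0.22), Pck2 (-3.20 ± 0.21), Fbp1 (-2.70 ± 0.30) and Pcx (-2.02 ± 0.70).

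**Figure D4:**
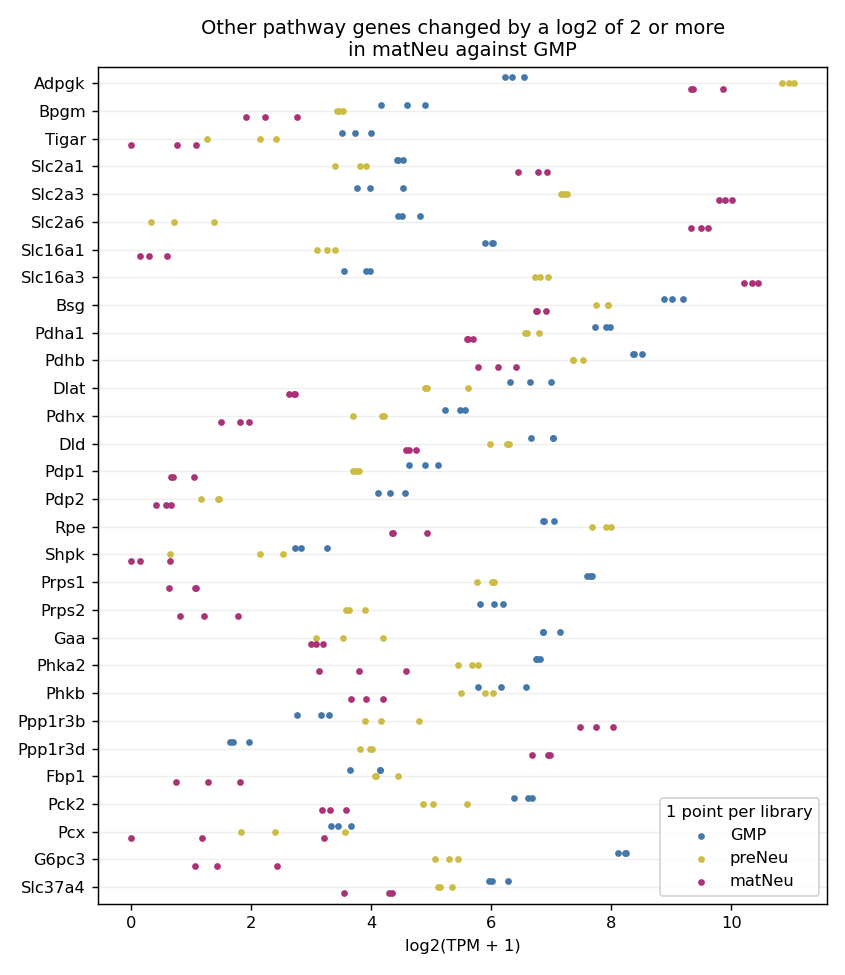
Level as log2(TPM + 1) of the further pathway genes that were called with an absolute log2 change of at least 2 in matNeu against GMP, with 1 point per library. Slc2a3, Slc2a6 and Slc16a3 end far to the right in matNeu, and Slc16a1, Prps1 and G6pc3 far to the left.

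CHD4 was next placed on these genes in WT GMPs. A CHD4 peak had its summit within a promoter (2 kb upstream to 500 bp downstream of a transcript start) of 10 of 38 members (26.3%, with a 95% Wilson interval from 15 to 42% that reflects counting error alone), against 9.56% of 21851 protein-coding promoters and 14.1% of those of genes with at least 1 TPM in GMP. These were Hk3, Gpi1, Pfkp, Pgk1, Ldhb, Pdk1, Gbe1, Pygl, Ugp2 and Hif1a, that is members of every role except the PFKFB enzymes and the pentose phosphate pathway. In the CHD4 list of Gfi1-/- GMPs, 1 member, Pgk1, had a promoter peak (1.88% of all promoters had one there). That list is much shorter, 7316 peaks against 35790, and the depth of both libraries is unknown, so that an absent peak does not show absent CHD4.

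The fold enrichment of a peak over its background, as the peak caller gave it, ranks peaks within a list. At promoters it was highest for Hif1a (16.3, chr12:73901258-73901535, the 85.3th percentile of CHD4 promoter peaks), where the peak covered the upstream of 2 starts and overlapped no H3K4me2 peak at any stage. Pdk1 (9.93, chr2:71872880-71873289), Gbe1 (9.62, chr16:70314334-70314693) and Hk3 (9.37, chr13:55021136-55021684) followed, with the summit 210 bp upstream of the Pdk1 start, 398 bp downstream of that of Gbe1 and 132 bp upstream of that of Hk3. The weakest was that of Pygl (4.89, chr12:70227674-70227906), at the 16th percentile.

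Of the 10 members with a CHD4 promoter peak, 6 were called higher and 4 lower in matNeu against GMP, with a median log2 change of 0.41. Of the other 28, 8 were called higher and 18 lower, with a median of -1.16. In preNeu against GMP the counts were 5 higher and 2 lower with a promoter peak and 10 higher and 12 lower without. Over all genes tested, 22.8% were called higher and 54.1% lower in matNeu against GMP, and 14.7% and 44.3% in preNeu against GMP. The difference between members with and without a promoter peak was not tested. The same split over all genes was not computed, so it cannot be called a trait of these pathways. The 4 that fell in matNeu include Pdk1 and Ldhb, with some of the steepest drops of all.

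Within each gene and 10 kb around it, 66 CHD4 sites lay at 21 members, 10 of them at promoters, 33 in introns, 2 in exons and 21 outside the gene, and 17 members had none, among them Ldha, Gapdh, Aldoa, Pkm, Eno1, Tpi1 and Tkt. Their median fold enrichment was 6.56, against 7.72 over all CHD4 sites. Pfkp had 8 sites, Pygl 6, and Pfkfb4, Pgm1 and Gbe1 5 each. A peak of the Gfi1-/- list overlapped 8 of the 66 (12.1%), against 18.5% of all CHD4 sites, and these 8 were at Pgk1, G6pdx, Pgm1 and Gbe1 alone.

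The strongest site lay in an intron of Gbe1 (chr16:70326262-70327417, fold enrichment 42.8, 98.5th percentile), 12658 bp downstream of the start, and was met by a peak of 12.5 in Gfi1-/- GMPs. The second was in an intron of G6pdx (chrX:74425783-74427132, fold enrichment 21.4), at a place where the gene Ikbkg overlaps G6pdx, so that it cannot be given to either. Pgm1 as named in the table had sites of 17.7 (chr5:64102490-64103145, intronic) and 19.8 (chr5:64133127-64133568, outside the gene), and Pgk1 an intronic site of 18 (chrX:106189134-106189854). Each of these sites was met in the Gfi1-/- list. The 5 sites of Pfkfb4, the member that rose most, had fold enrichments of 4.68 to 8.07, lay in introns or downstream, and none was met in Gfi1-/- GMPs.

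H3K4me2, a mark of active and poised promoters and enhancers, was found at the promoters of 37 members in GMP (all but Pfkfb1), and of 38 in both preNeu and matNeu. Over all protein-coding promoters the shares were 62.4%, 61.8% and 59.4%, and over those of genes with at least 1 TPM in the same stage 93.2%, 95.1% and 92.1%, so that the members were marked about as often as other expressed genes. ATAC-seq peaks, which mark open chromatin, lay at 32 promoters, against 38.4% of all promoters and 73.6% of those expressed in preNeu. The preNeu and matNeu ATAC-seq lists were identical and count as 1 list, from which nothing can be read about stage.

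The widest H3K4me2 peak at a member's promoter had a median of 3172 bp in GMP, 6285 bp in preNeu and 5325 bp in matNeu, beside medians of 1817, 2732 and 2213 bp over all single H3K4me2 peaks at promoters. A peak of at least 10 kb was found at 0, 9 and 10 members, and 0.249%, 4.21% and 3.99% of all promoter peaks were that wide. For members the widest peak of each gene was taken, but for the background every single peak, so these values are not directly comparable. A share per gene, or among expressed genes alone, was not computed. The preNeu and matNeu lists cover more of the genome, 97.9 and 80.4 Mb against 49.8 Mb in GMP, and the part of library depth in the widening was not tested.

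Pygl went from 3157 bp in GMP to 18348 bp in preNeu and 18584 bp in matNeu (chr12:70217214-70235797), where it lay at the 99.2th percentile of width. Gpi1 went from 3516 to 18358 and 22721 bp, Pgd from 4412 to 20856 and 21229 bp, and Pfkfb4 from 4133 to 11068 and 11474 bp. Hk2, which was lower in matNeu, went from 5431 to 21654 and then 15252 bp, so that a wide mark and a high transcript did not always go together. Tpi1 went from 2272 to 9889 and back to 3020 bp, while Pdk1, at 3664, 3146 and 2829 bp, Pfkl, at 3313, 3175 and 2192 bp, and Pfkm, at 5620, 5239 and 3333 bp, were narrower in preNeu and matNeu than in GMP. Of the 66 CHD4 sites, 37 overlapped H3K4me2 in GMP, 60 in preNeu and 58 in matNeu. The same share over all CHD4 sites was not computed, and the lists cover 49.8, 97.9 and 80.4 Mb. These counts therefore show no gain particular to these genes. Each H3K4me2 value comes from 1 library, so none of these differences has a replicate check.

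**Figure D5:**
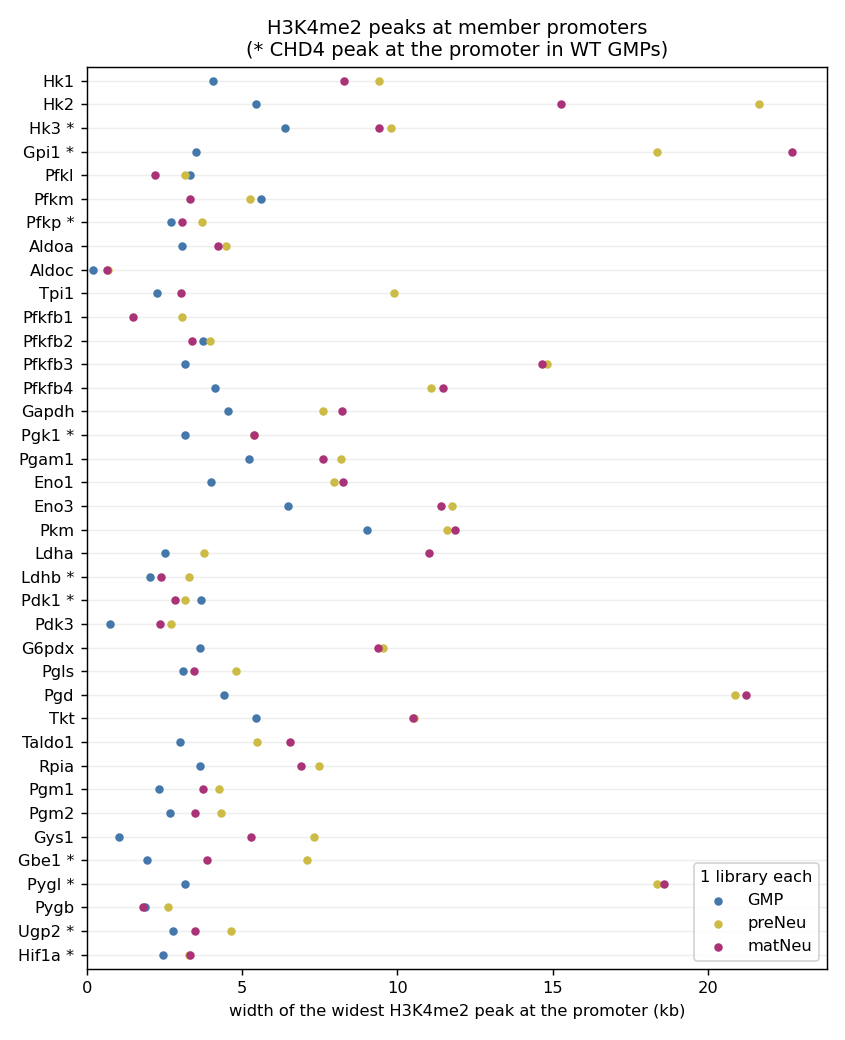
Width in kb of the widest H3K4me2 peak at each member's promoter, with 1 point per stage and 1 library per stage, and an asterisk at members with a CHD4 promoter peak in WT GMPs. Hk2, Gpi1, Pgd and Pygl exceed 15 kb in preNeu and matNeu, and Pdk1, Pfkl and Pfkm lie lower there than in GMP.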

How the data were processed

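The members and gene lists were chosen with earlier results of these data known. Expression values were deposited by the authors in TPM, with 1 column for each library. How TPM was computed is not stated, and TPM keeps no depth, so that limma replaced the count test of the study's methods, which also name TruSeq stranded libraries and HTSeq. The submitters' processing notes list FastQC 0.11.5, MultiQC 1.6, Trimmomatic 0.36, BWA 0.7.17, MACS2 2.1.0 and kallisto 0.44.0, with build mm10 and no roles.

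A linear model with a term for cell type was fitted to log2(TPM + 1) in limma 3.58.1 (R 4.3.3, eBayes with trend). It used all 9 libraries and kept genes that reached 1 TPM in 3 or more of them, with Benjamini-Hochberg adjustment over all genes. The script was tested on simulated data first. Isoenzyme shares and summed TPM were compared by exact permutation. Every member is named, and of the further pathway genes those called in matNeu against GMP with an absolute log2 change of at least 2, plus Pdk2, which was named after its values were seen. Where a symbol had more than 1 row, the row of highest mean TPM was taken.

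For each peak the authors deposited a fold enrichment over background, a −log10 q-value and a score, of which the deposited score was not used. The H3K4me3 and GFI1 lists have peaks beyond the ends of GRCm38 chromosomes and were not used here. A promoter spanned 2000 bp before and 500 bp after any protein-coding transcript start. CHD4 peaks were placed by summit, and broad peaks by an overlap of at least 1 bp. The depth of the peak lists is unknown. The B cell marker list is not reported here. Python 3.11.15, numpy 2.4.6, pandas 2.3.3, scipy 1.17.1 and matplotlib 3.10.9 were used.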

Additional observations from a re-analysis of the deposited data

How the results depend on the processing

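TPM is relative, and the depth of every library is unknown. Of 1932 recomputed log2 changes of members, 1823 kept direction and call, 61 lost the call, 18 gained it and 30 changed sign. Under the median of ratios, the sign changed in matNeu against GMP for Hk2 (0.31), Gapdh (0.02), Tkt (0.28) and Pgm1 (0.55), in preNeu against GMP for Hk1 (0.01), Aldoa (0.4), Pgk1 (0.22), Pgls (0.04), Rpia (0.35) and Hif1a (0.15), and in matNeu against preNeu for Gapdh (0.08), Eno1 (0.29) and Pdk1 (0.13). Rescaling without the 50 most abundant genes turned Aldoa (0.29), Pgk1 (0.1), Rpia (0.25) and Hif1a (0.03) in preNeu against GMP and Pfkl (-0.21), Pfkfb3 (-0.07) and Pgm1 (-0.01) in matNeu against preNeu. Without single libraries, Aldoc ran from -0.27 to 0.69 in preNeu against GMP and from -0.04 to 0.89 in matNeu against preNeu, Ldhb from -0.1 to 0.12 in preNeu against GMP, and Pfkl from -0.13 to 0.25 and Pdk1 from -0.43 to 0.23 in matNeu against preNeu, none of which was called. The cause of these changes was not tested.

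With an absolute log2 change of at least 1 asked as well, 7 members were higher and 19 lower in matNeu against GMP. The counts were 6 higher and 7 lower in preNeu against GMP and 4 higher in matNeu against preNeu. The median of ratios gave 8 lower in preNeu against GMP (28.2% of all genes) and 13 higher in matNeu against preNeu (30.2%). Rescaling without the top 50 genes gave 9 lower in preNeu against GMP. Without 1 library, 12 to 14 members were higher and 21 to 22 lower in matNeu against GMP. Except under the median of ratios, the share of all genes was not computed for these settings, so these counts do not set the members apart.

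The log2 ratio of summed TPM moved with the scale. Under the median of ratios and without the top 50 genes respectively, it was in matNeu against GMP 1.30 and 0.58 for hexokinases, 0.82 and 0.10 for upper glycolysis, 4.26 and 3.54 for PFKFB enzymes, 0.75 and 0.03 for lower glycolysis, 1.91 and 1.19 for pentose phosphate, 3.13 and 2.41 for glycogen and 1.14 and 0.42 for all members, and -0.50 for pyruvate and lactate under the median of ratios. In preNeu against GMP it was 0.73 and 0.62, 0.65 and 0.54, 2.22 and 2.11, 0.35 and 0.24, 1.26 and 1.15, 2.17 and 2.06, and 0.67 and 0.55 in the same order, and -0.13 and -0.24 for pyruvate and lactate. The 210 recomputed isoenzyme share differences stayed within 1 SD of the libraries. Leaving out 1 of 3 libraries cannot move a mean by that much, so those settings could not have failed. Only the settings that added other isoenzymes to a family could have.

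H3K4me2 in GMP was at 17 member promoters with a −log10 q of at least 5. ATAC peaks were at 23 with that threshold, 23 with an overlap of 500 bp and 26 at the 5′ end of the gene alone, a setting chosen after seeing the data.

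Same-numbered libraries of different stages deviated from their stage means with correlations of -0.04 to 0.12. Libraries with different numbers were not compared, and each stage had only 3 libraries. The values therefore cannot decide whether the numbers mark pairs. With the replicate block, 13 members were higher and 22 lower in matNeu against GMP, 15 and 14 in preNeu against GMP and 8 and 19 in matNeu against preNeu. The share of all genes called with the block was not computed. Of the members' calls only that of Gpi1 in matNeu against GMP was lost (adjusted p from limma = 0.0524).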
